A study of Mus musculus with 5 samples.

Results

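The mitochondrial ribosomal protein genes with an Mrps or Mrpl symbol were examined in RNA recovered by a Staufen1 antibody from mouse muscle stem cells. Members were all rows whose symbol is Mrps or Mrpl followed by digits alone, 72 of the 11194 genes in the table. By symbol, 25 belong to the small subunit and 47 to the large subunit. Another 3 protein-coding symbols of this form in the RefSeq gene table, Mrpl33, Mrpl53 and Mrps31, were not analysed here. Mrps30 was counted by its symbol although its product is known from structures to sit in the large subunit, and Mrps36 although its product is better known as a part of the oxoglutarate dehydrogenase complex.

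RNA was recovered with a rabbit antibody against Staufen1, a double-stranded RNA binding protein, from lysates of muscle stem cells (MuSCs, the precursors that rebuild skeletal muscle), which the study describes as quiescent. The StauKO group holds 2 libraries from cells of Staufen knockout mice (genotype Stau-/-), and the WT group holds 3 libraries from wild type mice (Stau+/+). All 5 libraries were immunoprecipitates made with the same antibody, so the StauKO libraries show what is recovered when the genotype label says that the target is absent. The labels give no age, no pooling of animals, no extent of the deletion and no statement that replicate libraries are from different animals, so a p-value here reflects the scatter among these 5 libraries, part of which may be technical. StauKO and WT below are the groups as labelled.

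The mitochondrial ribosome makes the few proteins encoded by mitochondrial DNA, which are core subunits of the respiratory chain and of ATP synthase. Its ribosomal RNAs are transcribed inside the organelle, whereas its proteins are encoded in the nucleus, made in the cytosol and imported. The small subunit binds the messenger RNA and decodes it. The large subunit joins the amino acids and passes the growing chain out through its exit tunnel.

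Totals were 9370244 and 3091302 counts in StauKO 1 and 2, and 105473455, 33846391 and 70042508 counts in WT 1 to 3, so both StauKO libraries were shallower than any WT library. The members took 0.268% and 0.275% of the counts in the StauKO libraries and 0.238% to 0.265% in the WT libraries. No member was at 0 in any library, but 38 of the 72 had under 100 counts in StauKO 2 and 11 had under 100 in StauKO 1, against 0 in each WT library. Stau1 itself did not separate the labels, with 109.0 and 110.7 CPM (the usual unit of counts relative to the library total, here scaled with TMM factors) in the StauKO libraries and 104.3, 126.8 and 118.2 CPM in the WT libraries (log2 fold change -0.08, SE 0.19, adjusted p = 0.847, edgeR). Counts over whole genes cannot show the loss of part of a gene or of its protein, so the knockout rests here on the label alone. Pax7, the transcription factor that marks these cells, was at 251.7 and 180.7 CPM in the StauKO libraries and at 211.3, 263.2 and 241.5 CPM in the WT libraries. Summed over 14 muscle stem cell markers, the level was 4670 to 4817 CPM in the StauKO libraries and 7313 to 7957 CPM in the WT libraries. Markers of endothelial cells (14 measured of 14) summed to 3382 to 3700 CPM in the StauKO libraries and 1594 to 2149 CPM in the WT libraries, and those of red blood cells (5 of 5) to 481.9 to 824.9 CPM and 220.8 to 300.9 CPM. Markers of muscle fibres (11 of 14) summed to 462.3 and 2807 CPM in StauKO 1 and 2 and to 581.3 to 677.4 CPM in the WT libraries. The sums for fibro-adipogenic progenitors (10 of 10) were 3567 to 3575 CPM in the StauKO libraries and 4165 to 6077 CPM in the WT libraries. Those of pericytes and smooth muscle (9 of 9) were 1682 to 1807 and 1373 to 1639 CPM, those of macrophages (8 of 10) 387.8 to 405.2 and 266.5 to 421.1 CPM, and those of Schwann cells (6 of 6) 485.1 to 579.2 and 390.5 to 511.0 CPM, with the StauKO range given before the WT range each time. No measured marker was at 0 in any library. In the edgeR test at an adjusted p under 0.05, 6 endothelial and 3 red blood cell markers were higher in StauKO. Of the muscle stem cell markers, 3 were lower. Fibro-adipogenic markers had 1 higher and 2 lower, muscle fibre and Schwann cell markers 1 higher each, and the other lists 0. Of all genes, 1% were called higher and 1.05% lower. The part of these cell types in the values below was not tested. In bulk material, fewer cells of a type and less RNA per cell cannot be told apart, and without an input library, neither can be told apart from recovery by the antibody.

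The promoters of the members are shown because they are a feature that the choice by symbol did not use. RefSeq promoter windows (GRCm38.p6, 250 bases before and 50 after each annotated start) were matched for 63 of the 72 members, with 69 windows in all. The letters CCGGAAG, the core bound by ETS family factors such as GABP, stood on either strand in 21 of the 69 member windows (30.4%), against 17.2% of the 11225 windows of genes in the table and 8.86% of all 32851 windows. AAGATGGCG, a form of the YY1 site, stood in 7 member windows (10.1%), against 3.17% and 1.40%. GCATGCGC, the core of the site of NRF1, was found in 6 member windows (8.70%), against 5.17% and 2.71%. GGGCGG, the GC box of Sp and KLF factors, stood in 37 member windows (53.6%), against 64.1% of the windows of genes in the table. TATAAA stood in 5 member windows (7.25%), against 7.04%. No overlap between these motifs was removed, and a match is a description of letters, not of binding. The 4 members named below that hold CCGGAAG in the 100 bases before the start are shown 5′ to 3′ on the strand of the gene, with matches to CCGGAAG, GCATGCGC or AAGATGGCG on either strand in capitals. The stretches lie at chr11:58171564-58171663 for Mrpl22, chr9:105053168-105053267 for Mrpl3, chr14:54426809-54426908 for Mrpl52 and chr2:130563657-130563756 for Mrps26, all on the plus strand.
Mrpl22: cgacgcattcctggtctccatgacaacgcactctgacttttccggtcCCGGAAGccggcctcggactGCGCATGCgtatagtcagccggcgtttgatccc
Mrpl3: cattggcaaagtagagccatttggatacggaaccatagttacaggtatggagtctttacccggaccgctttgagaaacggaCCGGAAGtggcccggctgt
Mrpl52: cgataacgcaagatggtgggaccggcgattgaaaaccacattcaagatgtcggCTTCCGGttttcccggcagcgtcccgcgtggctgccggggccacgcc
Mrps26: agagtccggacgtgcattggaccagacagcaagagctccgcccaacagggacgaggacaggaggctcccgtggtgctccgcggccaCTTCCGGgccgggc

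Start sites were also close to those of neighbours. Of the 63 members with a window, 24 (38.1%) had an annotated start of another gene on the opposite strand within 1000 bases upstream, against 19.8% of the 8663 genes of the table with a window. Mrps11 and Mrpl46, 1 member of each subunit, share such a site with starts 42 bases apart. Mrps12 stands opposite Sars2, the mitochondrial seryl-tRNA synthetase, at 147 bases, and Mrpl43 stands opposite Twnk (Peo1 in the table), the helicase of mitochondrial DNA, at 116 bases. The members lie on 17 chromosomes, and chromosome 11 holds 11 of them.

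The comparison asked whether the transcripts of mitochondrial ribosomal proteins were recovered differently from StauKO and WT cells, and whether both subunits behaved alike. In edgeR's quasi-likelihood test with Benjamini-Hochberg adjustment over all 11194 genes, 0 of the 72 members were higher and 0 were lower in the StauKO libraries at an adjusted p under 0.05. Across all genes tested, 1% were called higher and 1.05% lower in the StauKO libraries. With so few genes called in all, a count of 0 among 72 members is near that background. Both directions together made up 2.05% of all genes. At an unadjusted p under 0.05, 2 members were higher in StauKO (9.99% of all genes were) and 4 were lower (10.4% of all genes), in sum 8.33% of the members against 20.4% of all genes. DESeq2 called 1 member, Mrpl35, and limma-voom called 0. DESeq2 called more of all genes than edgeR did and limma-voom fewer, with the counts given in the last section. At an unadjusted p under 0.05, DESeq2 had 9.72% of the members against 21.6% of all genes.

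The estimates were small. The log2 fold change of StauKO over WT had a median of 0.07 over all members, 0.04 over the small subunit and 0.07 over the large subunit, beside 0.00 over all genes tested (-0.0032). It was above 0 for 40 members and below 0 for 32, split 13 and 12 in the small subunit and 27 and 20 in the large subunit. It lay within 0.5 either way for 64 of the 72 members, and 11.1% lay beyond that bound against 33.1% of all genes. The 95% interval stayed inside a 2-fold change in either direction for 50 members (69.4%), 16 of the small and 34 of the large subunit, against 48.8% of all genes. For the other 22 members, a 2-fold difference was within the interval, so these data could not show its absence. Values of the libraries did not overlap between the groups for 27 members (37.5%), 15 with the StauKO libraries above and 12 below, against 38.4% of all genes.

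**Figure D1:**
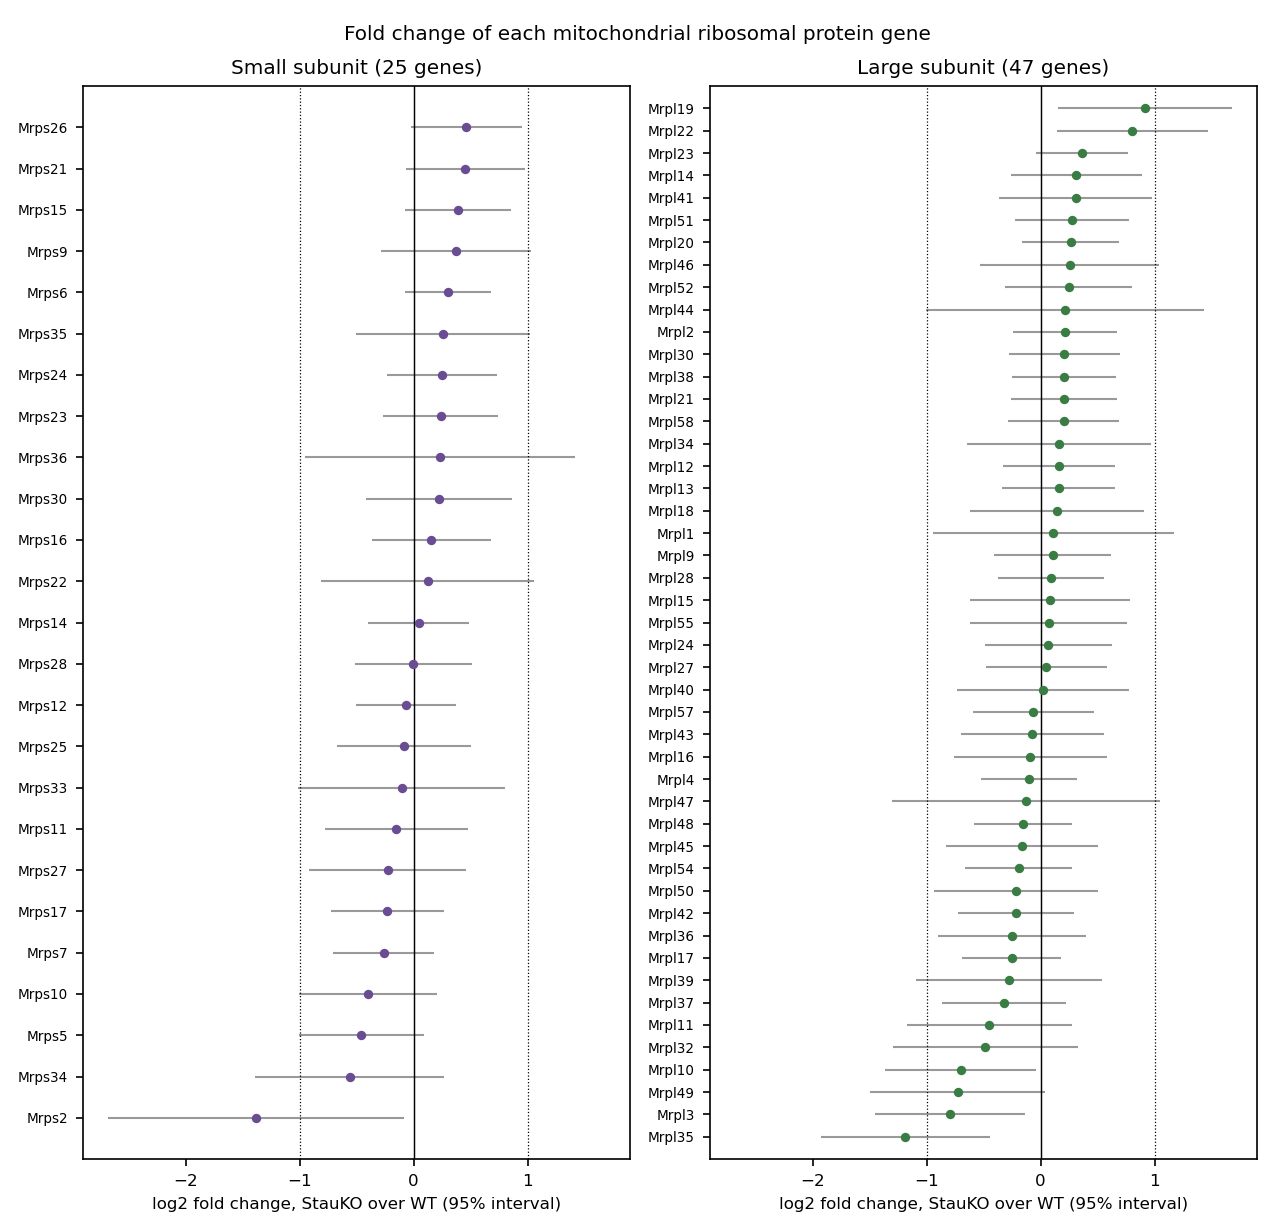
Log2 fold change of StauKO over WT for each of the 72 members (points) with its 95% interval (bars), from the edgeR fit over all genes, with the small subunit on the left and the large subunit on the right and genes ordered by estimate. Dotted lines mark a 2-fold change either way. Most estimates lie near 0 and 50 of the 72 intervals stay between the dotted lines.

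The level of the members as a group was close in the 5 libraries. Summed over all members it was 2632 and 2705 CPM in the StauKO libraries and 2424, 2671 and 2617 CPM in the WT libraries, with means of 2668 ± 52.1 CPM in StauKO (SD, n = 2) and 2571 ± 129.5 CPM in WT (SD, n = 3). The StauKO values lay within or just above the WT range. The small subunit summed to 938.3 and 1057 CPM in the StauKO libraries and to 898.1, 948.2 and 945.8 CPM in the WT libraries. The large subunit summed to 1693 and 1648 CPM in the StauKO libraries and to 1526, 1723 and 1671 CPM in the WT libraries. For both subunits the groups overlapped. Small subunit genes made up 35.7% and 39.1% of the members' sum in StauKO 1 and 2 and 35.5% to 37.0% in the WT libraries, so the StauKO libraries differed from each other by more than the WT libraries did.

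On a log scale, where each gene counts alike, the mean log2 CPM of the small subunit minus that of the large subunit was -0.09 and 0.11 in StauKO 1 and 2, and 0.06, -0.02 and -0.0027 in WT 1 to 3. The WT values all lay between both StauKO values, so no shift of one subunit against the other was larger than the spread between libraries. The median log2 fold change of the small subunit minus that of the large subunit was -0.03, and -0.15 without StauKO 2 and 0.08 without WT 1. With Mrps30 moved to the large subunit and Mrps36 left out, that difference was -0.08.

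**Figure D2:**
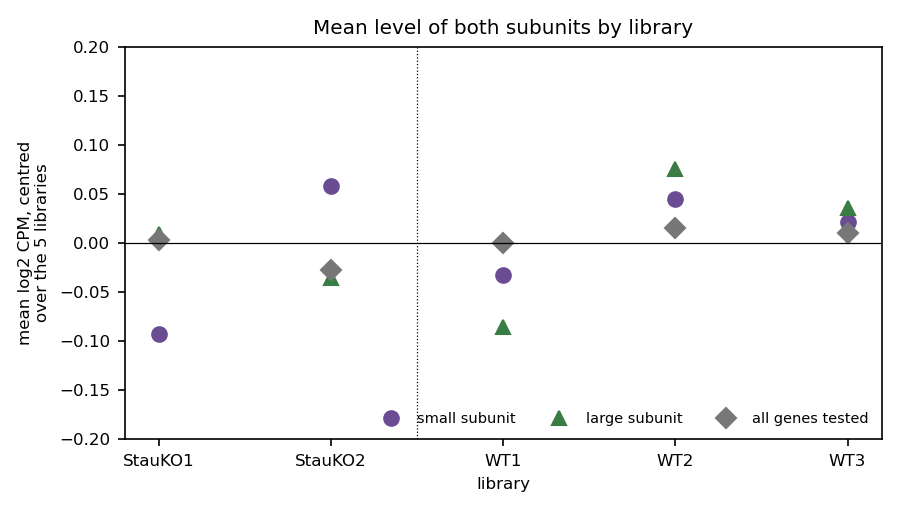
Mean log2 CPM of the small subunit members (circles), the large subunit members (triangles) and all genes tested (diamonds) in each library, centred over the 5 libraries, with StauKO libraries left of the dotted line and WT libraries right of it. Values of both subunits lie between -0.09 and 0.08, and StauKO 1 and 2 lie on opposite sides of 0 for the small subunit.

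Of the 6 members with an unadjusted p under 0.05, 5 belonged to the large subunit. Members past that bound made up 10.6% of the large and 4% of the small subunit, against 20.4% of all genes. Mrpl35, the counterpart of a bacterial large subunit protein (mm10 chromosome 6, 71813003 to 71823810, minus strand), was detected with 7.54 and 11.8 CPM in the StauKO libraries and 20.2, 18.9 and 25.03 CPM in the WT libraries. Both StauKO libraries were below every WT library, as held for 20.4% of all genes, and their values rest on 72 and 37 counts. This gave an estimate of -1.19 on the log2 scale (SE 0.34, 95% interval -1.93 to -0.45, adjusted p = 0.0800, edgeR). It ran from -1.50 to -0.86 with each library left out, with adjusted p from 0.0695 to 0.252 in edgeR. Mrpl35 was the 1 member called by DESeq2, at a log2 fold change of -1.17 and a DESeq2 adjusted p of 0.0232. That method also called more of all genes than edgeR did.

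Mrpl3, whose bacterial counterpart reaches toward the peptidyl transferase centre (chromosome 9, 105053239 to 105077466, plus strand), had 12.6 and 11.1 CPM in the StauKO libraries and 20.5, 21.9 and 19.7 CPM in the WT libraries. The groups did not overlap, and the estimate was -0.80 on the log2 scale (SE 0.31, adjusted p = 0.166, edgeR). Mrpl10, which anchors the stalk that meets the translation factors (chromosome 11, 97041560 to 97049213, plus strand), had 11.2 and 15.3 CPM in the StauKO libraries and 22.4, 20.6 and 20.5 CPM in the WT libraries. Its estimate was -0.70 on the log2 scale (SE 0.31, adjusted p = 0.218, edgeR). Mrpl49, a protein with no bacterial counterpart (chromosome 19, 6053630 to 6057751, minus strand), had 10.5 and 8.59 CPM in the StauKO libraries and 15.9, 12.5 and 19.5 CPM in the WT libraries (log2 fold change -0.73, SE 0.36, adjusted p = 0.270, edgeR). These 3 genes had lower values in both StauKO libraries than in any WT library, and none passed the test. They were named for a small p, and the same order of libraries held for 20.4% of all genes. Mrpl49 overlaps Syvn1 (log2 fold change 0.12), and its counts are uncertain because the use of strand in counting is not stated.

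Estimates in the opposite direction came from the same subunit. Mrpl22, which lines the exit tunnel (chromosome 11, 58171661 to 58179565, plus strand), had 21.8 and 19.4 CPM in the StauKO libraries and 10.7, 11.6 and 13.1 CPM in the WT libraries. Its estimate was 0.81 on the log2 scale (SE 0.31, 95% interval 0.14 to 1.47, adjusted p = 0.166, edgeR). Mrpl19, whose bacterial counterpart lies at the face between the subunits (chromosome 6, 81957851 to 81965958, minus strand), had 15.0 and 15.3 CPM in the StauKO libraries and 7.81, 7.60 and 8.62 CPM in the WT libraries (log2 fold change 0.92, SE 0.36, adjusted p = 0.170, edgeR). Replicates of both genes lay close together and the groups did not overlap. Both genes were named for a small p and a large estimate, and StauKO libraries above every WT library were found for 18.1% of all genes. Mrpl19 overlaps Gcfc2, which was at 4.48 ± 1.31 CPM in the StauKO libraries (SD, n = 2) and 3.002 ± 1.49 CPM in the WT libraries (SD, n = 3). Mrpl3 and Mrpl22 both hold CCGGAAG in the promoter stretch printed above and had estimates of opposite sign.

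In the small subunit, Mrps2, the counterpart of a bacterial small subunit protein (chromosome 2, 28468066 to 28471178, plus strand), had the lowest estimate of all members, -1.39 (SE 0.61, 95% interval -2.68 to -0.09, adjusted p = 0.215, edgeR). It had 1.36 and 5.41 CPM in StauKO 1 and 2 and 7.58, 6.81 and 9.44 CPM in the WT libraries. The StauKO values rest on 13 and 17 counts and differ from each other by 1.99 on the log2 scale, more than for any other member. Without StauKO 1 the estimate was -0.56, and without StauKO 2 it was -2.54. Mrps34, a protein specific to the mitochondrial ribosome (chromosome 17, 24895116 to 24897502, plus strand), had 9.74 and 6.04 CPM in the StauKO libraries and 11.7, 12.3 and 11.8 CPM in the WT libraries (log2 fold change -0.56, SE 0.39, adjusted p = 0.443, edgeR). Its estimate was -0.98 without StauKO 1 and -0.29 without StauKO 2. It overlaps Mapk8ip3 in the table (log2 fold change 0.66). Mrps5, whose bacterial counterpart lies near the messenger RNA entry (chromosome 2, 127587222 to 127606829, plus strand), had 22.4 and 24.8 CPM in the StauKO libraries and 32.3, 36.1 and 28.6 CPM in the WT libraries (log2 fold change -0.46, adjusted p = 0.337, edgeR).

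**Figure D3:**
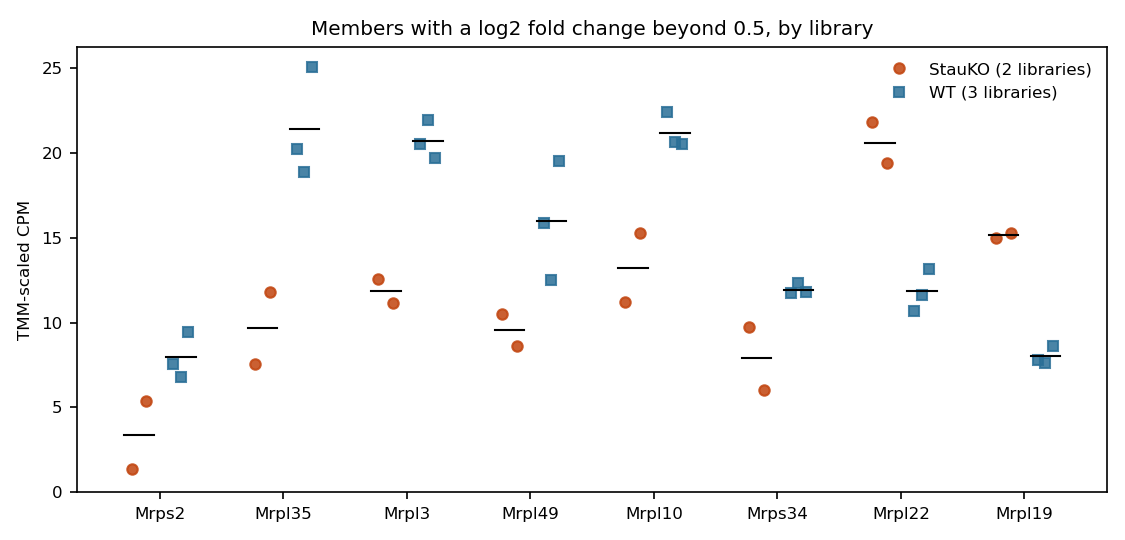
TMM-scaled CPM in each library for the 8 members with a log2 fold change beyond 0.5 either way, with StauKO libraries (circles, 2) left of WT libraries (squares, 3) and bars at group means. The 8 were picked by the size of their difference, and the groups do not overlap for any of them; 6 were lower and 2 higher in the StauKO libraries, and none passed the edgeR test.

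The other small subunit members named for a small p had positive estimates. Mrps26 (chromosome 2, 130563742 to 130568695, plus strand) had 52.3 and 64.3 CPM in the StauKO libraries and 36.4, 48.9 and 40.9 CPM in the WT libraries (log2 fold change 0.46, SE 0.23, adjusted p = 0.268, edgeR). Mrps21 (chromosome 3, 95862634 to 95871519, minus strand) had 43.8 and 39.4 CPM in the StauKO libraries and 29.5, 36.2 and 25.9 CPM in the WT libraries (0.45, SE 0.24, adjusted p = 0.317, edgeR). Mrps15 (chromosome 4, 126046925 to 126055532, plus strand) had 60.7 and 49.6 CPM in the StauKO libraries and 40.5, 46.1 and 40.7 CPM in the WT libraries (0.39, SE 0.22, adjusted p = 0.341, edgeR). Mrps15 and Mrps21 encode counterparts of bacterial small subunit proteins, and Mrps26 a protein specific to mitochondria. The groups did not overlap for any of these 3 genes, which were picked by p, and did not overlap for 38.4% of all genes. The 95% intervals reached from just under 0 to 0.95, 0.97 and 0.85 for Mrps26, Mrps21 and Mrps15.

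Mrps6 was the most abundant member per length and the most precisely measured. It encodes the counterpart of a bacterial small subunit protein (chromosome 16, 92058270 to 92112227, plus strand) and had 200.7 and 224.3 CPM in the StauKO libraries and 171.1, 166.4 and 179.8 CPM in the WT libraries. The StauKO mean was 212.5 ± 16.7 CPM (SD, n = 2) and the WT mean 172.4 ± 6.79 CPM (SD, n = 3), a 1.23-fold difference with a 95% interval of 0.946 to 1.601 (log2 fold change 0.30, SE 0.18, adjusted p = 0.366, edgeR). Both StauKO libraries lay above every WT library, as held for 18.1% of all genes, and the interval includes no difference. Mrps6 overlaps Slc5a3, an inositol transporter gene, which was at 47.0 ± 17.6 CPM (SD, n = 2) in the StauKO libraries and 53.1 ± 4.18 CPM (SD, n = 3) in the WT libraries.

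Levels per length spread far more between members than between groups. Expressed as CPM per kilobase of summed exon length, the mean over the 5 libraries ran from 1.23 for Mrpl47 to 179.0 for Mrps6, with medians of 11.4 in the small subunit and 14.2 in the large subunit, beside 6.95 over all genes in the table. Per library, the small subunit median was 12.1 and 14.7 CPM per kilobase in the StauKO libraries and 10.1, 10.7 and 12.5 in the WT libraries. The large subunit median was 14.3 and 14.5 CPM per kilobase in the StauKO libraries and 13.8, 13.1 and 13.4 in the WT libraries. Proteins that stand side by side in the same particle were thus encoded by transcripts recovered at very different levels in both groups. Not divided by length, the mean CPM of the members ran from 3.51 to 188.5, so the division by length widened the spread and changes the order. Across the 72 members the mean log2 CPM of the groups correlated at r = 0.953 (rho 0.956), a description over genes that share their libraries.

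At the top of the order, Mrps6 averaged 201.8 ± 15.9 CPM per kilobase in the StauKO libraries (SD, n = 2) and 163.8 ± 6.45 in the WT libraries (SD, n = 3). Mrpl52, specific to mitochondria (chromosome 14, 54426909 to 54429750, plus strand), followed with 165.6 ± 15.9 and 139.3 ± 44.2 CPM per kilobase, StauKO before WT. Mrpl4, another protein of the exit tunnel (chromosome 9, 21002737 to 21008835, plus strand), had 94.8 ± 10.2 CPM per kilobase in the StauKO libraries and 101.6 ± 13.8 in the WT libraries. Mrps6 and Mrpl52 overlapped in their spread in WT, whereas Mrpl4 lay below the Mrps6 values in both groups. Mrps28 (67.8 ± 18.5 and 67.2 ± 9.32 CPM per kilobase, StauKO and WT), Mrpl54 (61.3 ± 8.67 and 70.5 ± 8.26) and Mrps24 (68.4 ± 23.6 and 57.0 ± 3.71) complete the 3 highest of each subunit and did not differ from each other beyond their spread. Mrps24 is the counterpart of a bacterial protein at the messenger RNA entry (chromosome 11, 5703983 to 5715680, minus strand) and overlaps Urgcp, Mrps28 lies on chromosome 3 (8802146 to 8923918, minus strand) and Mrpl54 on chromosome 10 (81264713 to 81266934, minus strand).

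The log2 fold changes of these abundant members were all small. They were 0.25 for Mrpl52 (95% interval -0.31 to 0.80), -0.10 for Mrpl4 (-0.53 to 0.32), 0.00 for Mrps28 (-0.0021, interval -0.51 to 0.51), -0.19 for Mrpl54 (-0.66 to 0.28) and 0.25 for Mrps24 (-0.23 to 0.73), with edgeR adjusted p from 0.571 for Mrps24 to 0.997 for Mrps28. The direction of Mrps28 changed with the scaling of the libraries, and that of Mrps24 without StauKO 2. In StauKO 1 and 2, Mrps24 was at 75.7 and 124.7 CPM, on either side of the WT values of 78.0, 88.9 and 83.7 CPM.

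At the bottom, Mrpl47, whose bacterial counterpart lies at the tunnel exit (chromosome 3, 32725397 to 32737147, minus strand), had 5.76 and 1.91 CPM in the StauKO libraries, on 55 and 6 counts, and 4.30, 4.32 and 4.76 CPM in the WT libraries. Its 95% interval, -1.30 to 1.05 on the log2 scale, covers a 2-fold change either way. Mrpl1, of the flexible stalk by which transfer RNA leaves (chromosome 5, 96209493 to 96266727, plus strand), had 6.49 and 7.63 CPM in the StauKO libraries and 3.88, 8.91 and 6.73 CPM in the WT libraries (log2 fold change 0.11, interval -0.95 to 1.17). Mrps35 (chromosome 6, 147042764 to 147070903, plus strand) had 12.3 and 14.6 CPM in the StauKO libraries and 12.8, 11.7 and 9.02 CPM in the WT libraries (0.26, interval -0.51 to 1.02). The groups overlapped for these 3 genes. Mrpl47 overlaps Actl6a and Ndufb5 in the table, which were at 21.5 ± 6.52 and 31.2 ± 2.21 CPM in the StauKO libraries (SD, n = 2) and at 34.1 ± 9.64 and 34.2 ± 4.09 CPM in the WT libraries (SD, n = 3).

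**Figure D4:**
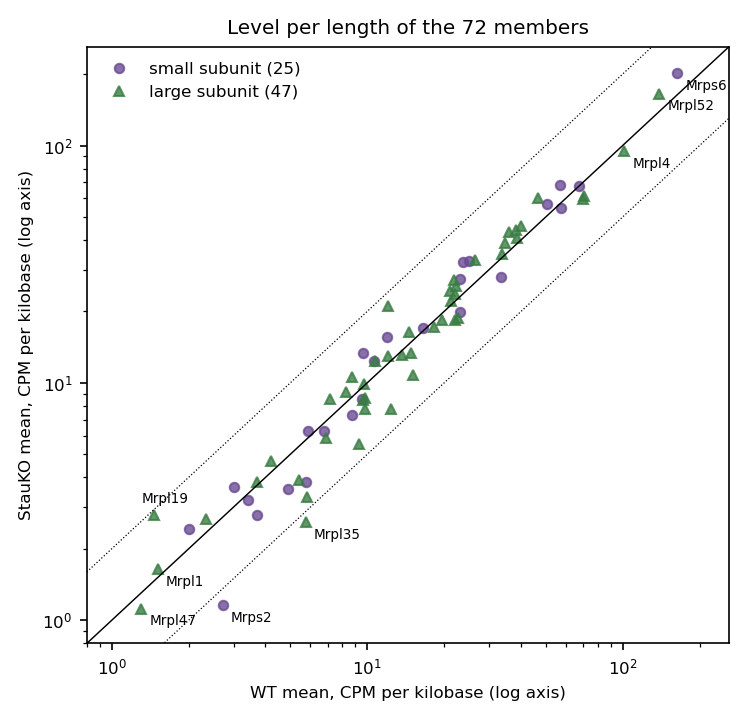
Mean level of each member in the StauKO libraries (vertical axis) against its mean in the WT libraries (horizontal axis), both in CPM per kilobase on log axes, for the small (circles) and large (triangles) subunit. The solid line marks equal levels and the dotted lines a 2-fold difference; the plotted means run from 1.12 (Mrpl47) to 201.8 CPM per kilobase (Mrps6), both in StauKO.

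Precision followed the level. With the members split by mean CPM into 3 sets of 24, in the lowest set (3.51 to 18.1 CPM) the median SE was 0.36 and 5 intervals stayed inside a 2-fold change. In the middle set (18.6 to 40.2 CPM) the median SE was 0.27 and 21 of 24 intervals stayed inside. In the highest set (43.8 to 188.5 CPM) it was 0.22 and all 24 intervals stayed inside a 2-fold change. There, estimates ran from -0.26 to 0.46.

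Members were also split by ancestry. The 44 members with a bacterial counterpart had a median of 20.9 CPM per kilobase and the 28 specific to mitochondria one of 9.42, and the split held in the small subunit (27.3 for 15 genes and 6.29 for 10) and in the large subunit (17.9 for 29 genes and 10.6 for 18). Both classes ranged widely, from 1.23 to 179.0 and from 2.18 to 149.8 CPM per kilobase, and the difference was not tested. In CPM, not divided by length, the medians with and without a counterpart were 47.5 and 13.6 in the small subunit. In the large subunit they went the other way, at 23.3 and 27.8 CPM. The median fold changes of both classes were 0.08 with and -0.02 without a counterpart (log2). All 6 members with an unadjusted p under 0.05 had a counterpart, 13.6% of that class against 20.4% of all genes. Median summed exon length was 1715 bases over the members and 3804.5 bases over all genes. Across members the level per length fell with length (r = -0.641, rho -0.615, n = 72). Length divides this level, and CPM itself showed almost no relation with length (r = -0.032). The reason for the fall was not tested.

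Replicates of the members were also compared, beside a median size of the log2 fold change between groups of 0.22. The median gap between StauKO 1 and 2 was 0.27 (log2), and 36 members were higher in each library, although StauKO 2 was the shallower library. The median range over the 3 WT libraries was 0.34. Gaps over 1 log2 unit were found for 5 members between the StauKO libraries (Mrpl15, Mrpl55, Mrpl39, Mrps2 and Mrpl47) and for 2 among the WT libraries (Mrpl44 and Mrpl1), all named here after their values were seen. Log2 CPM of the members correlated at 0.925 between the StauKO libraries, 0.959 to 0.9747 between WT libraries and 0.914 to 0.938 between groups, as a description over 72 genes. The StauKO value thus lay inside the range between groups, and the WT values lay above it.

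Among 8 mitochondrial ribosomal proteins that carry other symbols, 1 gene was called, against 2.05% of all genes in either direction. Both StauKO libraries lay above every WT library for 4 of the 8 and below for 1, against 18.1% and 20.4% of all genes. Chchd1, a small subunit protein of the CHCH domain family, had 59.0 and 39.4 CPM in the StauKO libraries and 18.7, 28.0 and 19.8 CPM in the WT libraries. The StauKO mean was 49.2 ± 13.8 CPM (SD, n = 2) and the WT mean 22.1 ± 5.06 CPM (SD, n = 3), with a log2 fold change of 1.17 (SE 0.27, adjusted p = 0.0427, edgeR). The call was lost without StauKO 1 (log2 fold change 0.84, adjusted p = 0.166), without WT 1 (1.07, adjusted p = 0.141) and without WT 3 (1.10, adjusted p = 0.145) in the same edgeR test, and with limma-voom (adjusted p = 0.129). Chchd1 overlaps the noncoding gene 6230400D17Rik. The other 7, Mrps18a, Mrps18b, Mrps18c, Dap3, Ptcd3, Aurkaip1 and Gadd45gip1, passed neither way, and the median of the 8 was 0.28. Mrps18c was at 21.1 and 23.5 CPM in the StauKO libraries and 13.2, 15.4 and 13.6 CPM in the WT libraries (0.66, SE 0.30, adjusted p = 0.223, edgeR).

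The ribosomal RNAs of the same particle were set beside the protein genes. The gene model at the position of mt-Rnr1, the RNA of the small subunit (mitochondrial chromosome, 70 to 1024), had 486.0 and 744.1 CPM in the StauKO libraries and 182.8, 333.8 and 168.0 CPM in the WT libraries. Its estimate was 1.43 on the log2 scale (SE 0.27, adjusted p = 0.0198, edgeR). The model at mt-Rnr2, the RNA of the large subunit (1094 to 2675), had 4118 and 6885 CPM in the StauKO libraries and 1325, 2479 and 1604 CPM in the WT libraries (1.61, SE 0.26, adjusted p = 0.0120, edgeR). Both rose in the StauKO libraries, with estimates above that of any of the 72 protein genes, whose highest was 0.92. The mt-Rnr1 call was lost without StauKO 2 (adjusted p = 0.103), without WT 1 (0.0761), without WT 3 (0.0753) and with limma-voom (0.0755), and the mt-Rnr2 call without StauKO 2 (adjusted p = 0.0588) and without WT 3 (0.0502), by edgeR except where limma-voom is named. Libraries were primed with oligo(dT), so the level of an RNA also depends on its adenylation, and the difference between RNA and protein genes itself was not tested. Other RNAs encoded in mitochondrial DNA were not examined here, so the rise is not shown to be particular to the ribosomal RNAs.

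Factors that build and run the mitochondrial ribosome were counted in 3 lists. Each list is small, and with 2.05% of all genes called in either direction, a count of 0 in any of them is near the background. Of 22 measured assembly factors (27 listed), 0 passed in either direction, with a median estimate of 0.00 (log2, -0.00078). The smallest p belonged to Trub2, a mitochondrial pseudouridine synthase known in human cells to modify mitochondrial messenger RNAs, with 52.6 and 40.4 CPM in the StauKO libraries and 15.8, 18.2 and 30.1 CPM in the WT libraries (1.13, SE 0.30, adjusted p = 0.0613, edgeR), and to Nsun4, which methylates the small ribosomal RNA (0.83, adjusted p = 0.170, edgeR). In the RefSeq annotation Trub2 overlaps Coq4 and Mtif3, named next, overlaps Gtf3a. Of 13 translation factors and messenger RNA binders (18 listed), 0 passed, with a median of -0.21. Slirp, a partner of Lrpprc in keeping mitochondrial messengers stable, was at 0.55 (adjusted p = 0.298, edgeR), and the initiation factor Mtif3 at -1.04 (SE 0.56, adjusted p = 0.320, edgeR). The list of mitochondrial aminoacyl-tRNA synthetases (22 listed) also took in Gatb, Gatc and Qrsl1, which are not synthetases. Gars and Kars on it serve the cytosol as well. Of its 19 measured genes, 0 passed, with a median of -0.04. The smallest p were those of Fars2 (-0.58, adjusted p = 0.290, edgeR) and Lars2 (0.54, adjusted p = 0.295, edgeR). The Fars2 estimate ran from -0.99 to -0.31 and that of Lars2 from 0.24 to 0.87 with each library left out. Lars2 was at 4638 and 3196 CPM in the StauKO libraries and 2623, 3818 and 1669 CPM in the WT libraries, and it overlaps the RefSeq gene Gm46137, as Fars2 overlaps Gm40912.

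Lists further from the ribosome were counted in the same way, against the same 2.05% of all genes. Of 18 measured genes of mitochondrial transcription and RNA processing (23 listed), 0 passed and the median was 0.03; the helicase Peo1 was at 0.80 and Tbrg4 at 0.56, with edgeR adjusted p of 0.211 and 0.215. Of 11 nuclear regulators (12 listed), 0 passed and the median was 0.07. Myc had 681.7 and 819.2 CPM in the StauKO libraries and 1179, 1333 and 972.3 CPM in the WT libraries (-0.63, SE 0.19, adjusted p = 0.0911, edgeR), and Pprc1, a coactivator of the PGC-1 family, was at 0.58 (adjusted p = 0.137, edgeR). Of 27 protein import genes, 0 passed and the median was 0.01; the inner membrane channels Timm23 and Timm22 were at -0.65 and -0.82, with edgeR adjusted p of 0.116 and 0.127.

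Cytosolic ribosomal protein genes had mostly positive estimates. Of 80 genes, 72 had an estimate above 0, the median was 0.32, and for 44 both StauKO libraries lay above every WT library, against 18.1% of all genes. For the mitochondrial ribosomal members this held for 15 of 72. In the test, 1 of the 80 passed. With 2.05% of all genes called in either direction, this count and the 0 of 92 below are near the background. The gene that passed was Rpl12, with 580.5 ± 87.8 CPM (SD, n = 2) in StauKO and 319.8 ± 69.6 CPM (SD, n = 3) in WT. Its log2 fold change was 0.86 (adjusted p = 0.0474, edgeR), and the others passed neither way. The Rpl12 call was lost with any library left out except WT 2 (adjusted p from 0.0689 to 0.188, edgeR) and with limma-voom (0.129), and Rpl12 overlaps Lrsam1. Rpl22l1 was at 0.89 (adjusted p = 0.0632, edgeR). Of 92 nuclear genes of oxidative phosphorylation, assembly factors with Nduf or Atp5 symbols included, 0 passed and the median was 0.19, with Atp5j at 0.60 (adjusted p = 0.0831, edgeR) and Cox4i2 at 1.29 (adjusted p = 0.0911, edgeR). Cox4i2 was at 12.6 and 31.5 CPM in StauKO 1 and 2 and at 7.78, 9.06 and 9.62 CPM in the WT libraries, and its estimate was 1.84 without StauKO 1 (adjusted p = 0.0281, edgeR) and 0.51 without StauKO 2. All lists use the same 5 libraries, and no difference between lists was tested.

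**Figure D5:**
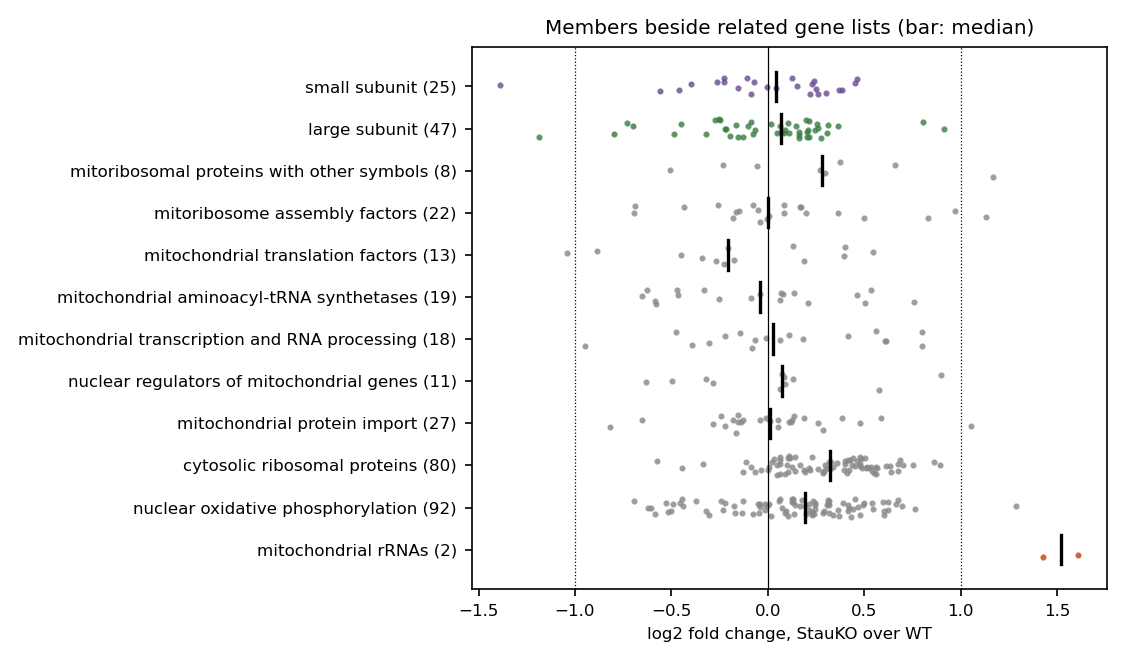
Log2 fold change of StauKO over WT for each gene (points, spread vertically at random within a row) in the 2 subunits, the related gene lists and the 2 mitochondrial ribosomal RNA models, with a black bar at each median. Dotted lines mark a 2-fold change; the medians of both subunits are 0.04 and 0.07, and both ribosomal RNAs lie beyond the right dotted line.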

How the data were processed

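The submitters' processing notes list mm10 and the tools STAR, Trim Galore, Subread with featureCounts, and edgeR. Versions, the annotation release and the use of strand in counting are not stated in these sources, so overlapping genes are uncertain (17 members overlap another gene of the table, and 6 RefSeq pseudogenes are named after members). Per the labels, 101 bp paired-end libraries were made from oligo(dT)-primed cDNA. The authors deposited raw counts per gene. The table had been filtered: the third-highest CPM of any gene was at least 3.02, so a gene present in StauKO alone could not enter.

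Counts were fitted over all 11194 genes in R 4.3.3 with edgeR 4.0.16: filterByExpr (0 genes removed), TMM factors, glmQLFit and glmQLFTest (two-sided) with 14.05 degrees of freedom, Benjamini-Hochberg adjustment and a threshold of 0.05. Fold changes are StauKO over WT. Mean log2 CPM used a prior count of 2. The script was tested on simulated data. Totals ran from 3091302 to 105473455 counts; a count of 0 would allow up to 0.954 CPM in StauKO 2 and 0.029 CPM in WT 1 (3 counts, counting error only, since no molecular identifiers are named). Replicates differed by more than sampling noise (chi-square per degree of freedom 17.7 to 258.5).

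Members, lists, motifs and named genes were chosen with earlier results of these data known. The rule named, per subunit, the 6 smallest p, 3 highest and 2 lowest levels per length and 2 largest estimates each way; per list, called genes and the 2 smallest p. Alternatives were RLE, upper-quartile and no scaling factors, no or a stricter filter, DESeq2 1.42.0, limma-voom (limma 3.58.1), the replicate number as a block, thinning, each library left out, and other member sets. No sample was left out. 0 columns of per-sample values were unused.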

Additional observations from a re-analysis of the deposited data

How the results depend on the processing

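Both StauKO libraries were shallower than the WT libraries, and 10 members had under 30 counts in StauKO 2. The count of members called stayed at 0 in each direction under every alternative tried except DESeq2, which called 1 lower (Mrpl35), and an enlarged set, which had 1 higher when the 8 mitoribosomal proteins with other symbols were added, an alternative chosen after seeing the data (Chchd1). The number of all genes called moved far more: 457 higher and 433 lower in StauKO with DESeq2, 14 and 8 with limma-voom, and 324 and 288 with the replicate number as a block, against 112 and 118. With each library left out it ran from 23 to 172 higher and from 11 to 176 lower. The shared numbers do not pair the samples by any label, and deviations of equally numbered libraries correlated at 0.05 and 0.04; under the block 0 members were called and the median of the members was 0.05. The median of the members ran from 0.00285 to 0.0672 with each library left out, and that of the large subunit from -0.0255 to 0.102, the lowest value being without WT 1. The small subunit median ran from -0.0593 to 0.0557 and the small minus large difference from -0.15 to 0.0783, so neither kept its sign. The median of all genes moved by under 0.1 with any scaling. Signs turned for 5 named genes with estimates from -0.13 to 0.25: Mrpl4 at 0.0495 and Mrpl47 at 0.22 after thinning, and Mrps28 at 0.018 with RLE factors, 0.040 with total counts, 0.016 with the stricter filter, 0.018 with DESeq2, 0.032 with the replicate block and 0.016 after thinning. With each library left out, the range was -0.15 to 0.40 for Mrpl1, -0.21 to 0.0055 for Mrpl4, -1.22 to 0.37 for Mrpl47, -0.14 to 0.58 for Mrps24 and -0.30 to 0.27 for Mrps28; the cause was not tested. Of 570 pairs of a named gene and an alternative, 526 kept direction and side of the threshold.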
